A study of Homo sapiens with 6 samples.

Results

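This report describes 46 genes of DNA repair and the Fanconi anaemia pathway in SCC90 cells, an HPV16-positive oropharyngeal squamous carcinoma line, after silencing of ΔNp63, the main isoform of the epithelial transcription factor p63. The genes were taken by name from a list of crosslink, excision, mismatch, translesion and recombination repair genes, and all 46 had a row among the 40488 genes of the deposited table. The siDNp63 group held 3 libraries from cells transfected with an siRNA directed against ΔNp63, and the siCTRL group held 3 libraries from cells transfected with a scrambled siRNA. RNA of both groups was taken 72 h after transfection, at an siRNA concentration given in the labels as 10 nM, which differs from the concentration in the study's methods. SCC90 is a single cell line, so both groups share its viral genome and its genotype. The replicates of each group are numbered 1 to 3 with no statement that they were separate cultures, so the p-values rest on the variation among these 6 libraries, part or all of which can be technical.

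Cells repair DNA by several routes that share components. In the Fanconi anaemia pathway, a core complex of FANC proteins works with the ubiquitin-conjugating enzyme UBE2T. The complex attaches ubiquitin to the FANCD2-FANCI pair at interstrand crosslinks, which are among the lesions that cisplatin forms. Nucleases, translesion polymerases and homologous recombination then complete the repair. Nucleotide excision repair removes bulky adducts and ultraviolet lesions as a short single-stranded piece, mismatch repair corrects replication errors, and the kinases ATM, ATR, CHEK1 and CHEK2 hold the cell cycle while damage is present. Many genes of crosslink repair and recombination are transcribed mostly in S and G2 phase, in part through E2F factors.

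The promoter sequences of 6 of these genes are printed here: 4 that hold an E2F site, with called genes of both directions among them, and those of XPA and POLH, which had the highest and the lowest fold change of the 46. Each sequence runs 5′ to 3′ on the strand of the gene, from 250 bases before the transcription start to 30 bases from it, taken from RefSeq on GRCh38.p14. The positions are chr3:10026187-10026466 on the plus strand for FANCD2, chr1:241847954-241848233 on the plus strand for EXO1, chr9:95317680-95317959 on the minus strand for FANCC, chr3:14178572-14178851 on the minus strand for XPC, chr9:97697311-97697590 on the minus strand for XPA and chr6:43575935-43576214 on the plus strand for POLH. Capitals mark an E2F site, here TTTCGCGC, TTTGGCGC, TTTCCCGC or TTTGCCGC on either strand.
FANCD2: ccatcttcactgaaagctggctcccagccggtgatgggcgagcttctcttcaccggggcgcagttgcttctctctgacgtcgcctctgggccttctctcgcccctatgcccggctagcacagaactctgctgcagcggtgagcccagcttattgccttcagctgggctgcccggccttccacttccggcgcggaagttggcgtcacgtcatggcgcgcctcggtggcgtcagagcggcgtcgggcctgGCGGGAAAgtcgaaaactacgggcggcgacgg
EXO1: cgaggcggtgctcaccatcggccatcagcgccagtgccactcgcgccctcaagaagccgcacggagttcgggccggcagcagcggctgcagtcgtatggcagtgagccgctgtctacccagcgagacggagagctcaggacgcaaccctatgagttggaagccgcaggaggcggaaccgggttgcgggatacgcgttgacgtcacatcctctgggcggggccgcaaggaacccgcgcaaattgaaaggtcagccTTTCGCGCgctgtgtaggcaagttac
FANCC: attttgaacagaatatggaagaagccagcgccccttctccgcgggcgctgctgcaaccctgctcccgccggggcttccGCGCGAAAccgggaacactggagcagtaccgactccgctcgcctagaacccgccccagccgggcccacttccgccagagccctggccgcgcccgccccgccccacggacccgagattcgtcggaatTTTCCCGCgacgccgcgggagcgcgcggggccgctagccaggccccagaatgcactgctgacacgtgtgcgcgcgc
XPC: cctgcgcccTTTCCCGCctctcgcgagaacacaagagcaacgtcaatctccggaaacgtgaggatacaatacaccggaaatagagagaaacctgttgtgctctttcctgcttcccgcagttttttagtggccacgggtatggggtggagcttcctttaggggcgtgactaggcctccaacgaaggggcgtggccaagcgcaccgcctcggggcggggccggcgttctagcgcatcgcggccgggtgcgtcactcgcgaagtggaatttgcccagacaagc
XPA: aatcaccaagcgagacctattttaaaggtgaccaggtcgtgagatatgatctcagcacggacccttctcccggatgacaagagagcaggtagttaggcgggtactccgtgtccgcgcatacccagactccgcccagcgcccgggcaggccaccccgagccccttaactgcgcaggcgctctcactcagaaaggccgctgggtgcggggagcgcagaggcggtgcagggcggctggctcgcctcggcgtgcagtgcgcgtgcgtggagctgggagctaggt
POLH: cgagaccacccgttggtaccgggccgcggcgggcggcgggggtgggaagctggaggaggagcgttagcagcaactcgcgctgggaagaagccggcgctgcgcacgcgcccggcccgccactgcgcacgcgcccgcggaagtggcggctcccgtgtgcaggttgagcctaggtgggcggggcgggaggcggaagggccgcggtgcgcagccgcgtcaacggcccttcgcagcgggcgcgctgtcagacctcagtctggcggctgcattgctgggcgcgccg

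Counted from the start site, with the first transcribed base as 1, the marked run begins at base -2 in FANCD2, base 5 in EXO1, bases -172 and -46 in FANCC and base -241 in XPC. A window of 300 bases, 250 before and 50 from the start, was found for 44 of the 46 genes. An E2F site lay in 9 of the 44 (20.5%), against 3.33% of 27305 windows over all genes. The 9 genes were EXO1, FANCA and FANCD2, which were higher in siDNp63 libraries, FANCC and XPC, which were lower, and MSH3, MSH6, PMS2 and XRCC2, which were not called. By call, the site was in 3 of 13 windows of higher genes, 2 of 9 windows of lower genes and 4 of 22 windows of uncalled genes. The CCAAT box, searched as CCAAT on either strand, was in 19 of 44 windows (43.2%), against 35.7% of all windows. The cell cycle homology region, searched as TTTGAA or TTCGAA on either strand, was in 5 of 44 (11.4%), against 16.6%. The p53-family site, with at most 13 spacer bases, was in 0 of 44, against 0.0293% of all windows. A match describes the letters of a window and is not evidence of binding.

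The 6 libraries held 35716277 to 52598831 estimated counts. TP63, the targeted gene, had 15513, 14467 and 15407 normalized counts in siDNp63 libraries, against 42299.7, 44183.5 and 43680 in siCTRL libraries, a log2 fold change of -1.52 (SE 0.04, adjusted p = 7.59e-07). Summed keratinocyte markers were 5425 to 5713 TPM in siDNp63 libraries and 4734 to 4800 TPM in siCTRL libraries. Over 5 leukocyte markers the sum was 3.88 to 4.53 TPM in siDNp63 libraries, against 6.18 to 7.15 TPM in siCTRL libraries, and over 5 fibroblast markers, 1 of them at 0 counts, it was 4.62 to 8.11 TPM in siDNp63 libraries, against 7.47 to 9.54 TPM in siCTRL libraries. Over 4 endothelial markers it was 11.1 to 13.5 TPM in siDNp63 libraries and 2.50 to 3.00 TPM in siCTRL libraries, and their part in any result was not tested. The siDNp63 replicate 1 stood apart from the other 2 siDNp63 libraries on the second principal component of log2 values, with a coordinate of 39.1 against -25.6 and -24.8.

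All 46 repair genes passed the filter on low counts. Silencing of ΔNp63 was accompanied by small differences in both directions: 14 genes were higher and 9 lower in siDNp63 libraries, and 23 were not called. A gene was called at an adjusted p under 0.05 by the quasi-likelihood test of edgeR, adjusted over 17257 genes by the Benjamini-Hochberg method. The 23 called genes, 50% of the 46, compare with 33.6% of all genes tested, and with 42.8% of the 10471 genes that averaged over 300 normalized counts in both groups, a range that holds 45 of the 46. By direction, the background was 18.4% of all genes higher and 15.2% lower. None of the 46 passed an absolute log2 fold change of 1, against 4.06% of all genes (701 genes), and only XPA and POLH reached an absolute value of 0.5 among the called genes. The normalized counts of siDNp63 and siCTRL libraries did not overlap for 29 of the 46 genes, against 49.4% of all genes. The median log2 fold change was 0.06 over the 46 genes and -0.02 over all genes tested.

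The split between directions depended on the scaling. With library size as the only scaling, which moved the median of all genes to -0.11, 9 of the 46 genes were called higher and 13 lower, and the median of the 46 stood 0.08 above that of all genes, as it did with TMM scaling. On log2(TPM + 0.1), 3 genes were called higher and 8 lower, and with offsets for the estimated transcript length 4 were higher and 6 lower. The counts over all genes shifted as well. Against 3177 higher and 2626 lower in the main edgeR fit, library size alone gave 2330 and 4117. On log2(TPM + 0.1) all genes gave 1678 higher and 2285 lower, and with the length offsets 2344 and 1790. Without siCTRL replicate 1, 8 of the 46 genes were called higher and 8 lower, against 2459 higher and 1918 lower of all genes. Without siDNp63 replicate 1 the counts were 14 higher and 10 lower, and the median of the 46 was 0.00. The 9 genes called in the same direction in all 16 fits were BRCA1, BLM and XPA, which were higher, and FANCC, FANCE, FANCF, XPC, ERCC5 and POLH, which were lower. A further 15 genes were called in none of the 16 fits, and 0 were called higher in one fit and lower in another.

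**Figure D1:**
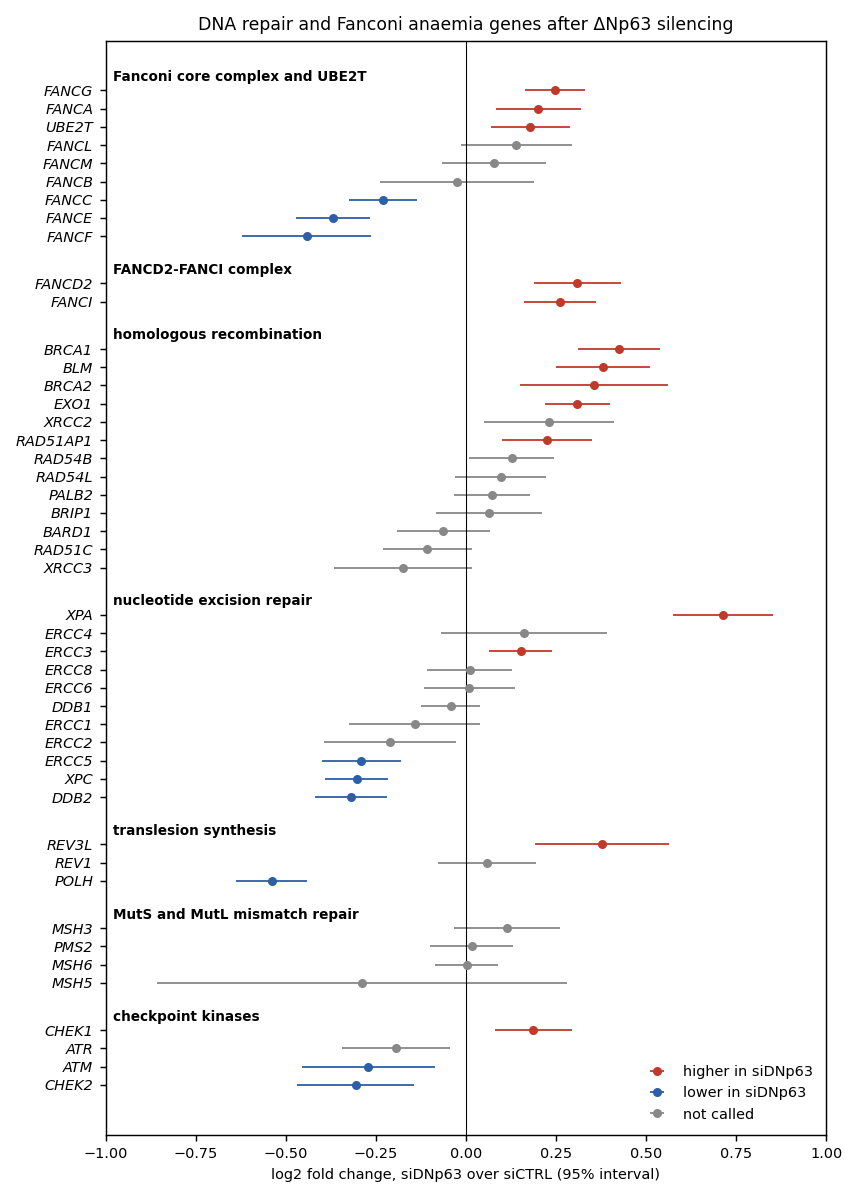
Log2 fold change of each of the 46 genes, siDNp63 over siCTRL, with its 95% interval from the edgeR fit (x axis), grouped by role and ordered within each role (y axis); red and blue points were called higher and lower in siDNp63 libraries. XPA, at 0.71, and POLH, at -0.54, are the points farthest to the right and the left among called genes, and most other intervals lie between -0.5 and 0.5.

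Levels are compared between genes in TPM, which divides by transcript length. The median of the 46 genes over the 6 libraries was 34.8 TPM. FANCI, at a mean of 184 TPM in siDNp63 libraries and 168 TPM in siCTRL libraries, and UBE2T, at 175 TPM in siDNp63 libraries and 164 TPM in siCTRL libraries, were the most abundant. MSH6, which recognises mismatches, followed at 130 TPM in siDNp63 libraries and 136 TPM in siCTRL libraries. MSH5, which acts in meiotic recombination, was the least abundant at 1.64 TPM in siDNp63 libraries and 1.65 TPM in siCTRL libraries. FANCF, at 4.34 TPM in siDNp63 libraries and 6.22 TPM in siCTRL libraries, and FANCB, at 6.32 TPM in siDNp63 libraries and 6.41 TPM in siCTRL libraries, were next above it. No gene was under 1 TPM in every library, although MSH5 was at 0.81 TPM in siDNp63 replicate 3 and 0.87 TPM in siCTRL replicate 3.

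**Figure D2:**
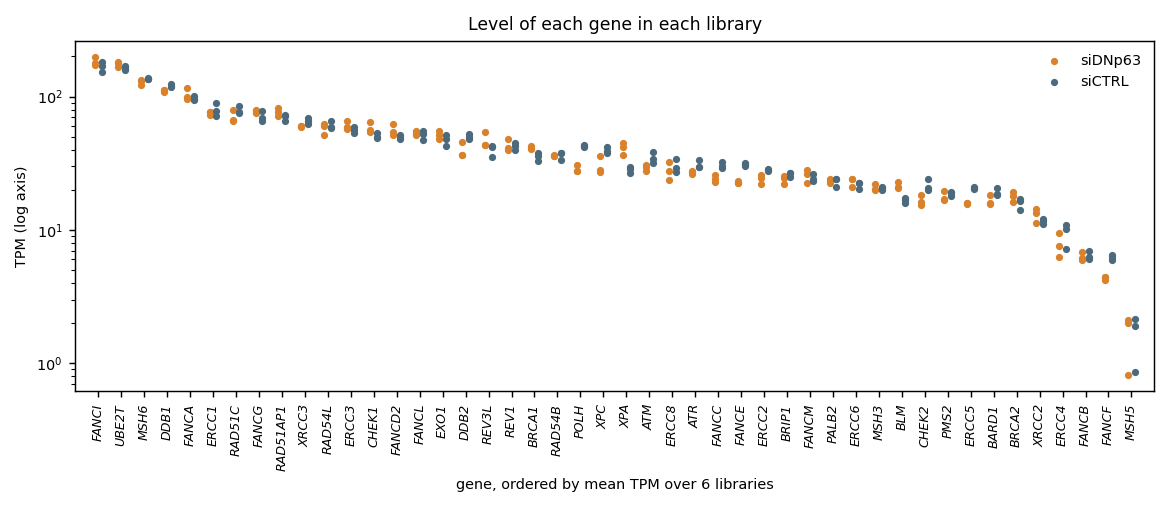
TPM of each gene (y axis, log scale) in each of the 3 siDNp63 libraries and 3 siCTRL libraries, with genes ordered by their mean over the 6 libraries (x axis). Levels span FANCI, at a mean of 176 TPM, to MSH5, at 1.64 TPM, and the groups lie close together for nearly every gene on this scale.

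Genes of the Fanconi core complex did not move together in the main edgeR fit. Of 9 genes, counting UBE2T, 3 were higher, 3 were lower and 3 were not called, with a median log2 fold change of 0.08 and 6 genes without overlap between groups. The called share was 66.7%, against 33.6% of all genes, and 49.4% of all genes did not overlap. With library size alone 1 core gene was called higher, and on log2(TPM + 0.1) and with transcript length offsets 0 were. In each of these fits 3 were called lower. The lower genes were FANCC, FANCE and FANCF, whose products form a subcomplex that binds the substrate. FANCE had 1607, 1702 and 1593 normalized counts in siDNp63 libraries, against 2137, 2126 and 2069.6 in siCTRL libraries. Its groups did not overlap, and it fell by 22.6% (log2 fold change -0.37, SE 0.04, adjusted p = 0.000554). FANCF had 416, 418 and 385 normalized counts in siDNp63 libraries, against 526, 573 and 558 in siCTRL libraries. Every siDNp63 library lay under every siCTRL library, and the log2 fold change was -0.44 (SE 0.08, adjusted p = 0.00333). FANCC, with 2173, 2077 and 2198 normalized counts in siDNp63 libraries and 2486, 2510.4 and 2565 in siCTRL libraries, fell by 14.7% (log2 fold change -0.23, SE 0.04, adjusted p = 0.00365). These 3 genes were called lower in all 16 fits, and they lie on different chromosomes, FANCE on chromosome 6, FANCF on chromosome 11 and FANCC on chromosome 9.

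The higher core genes included FANCG and FANCA, which bind each other within the complex. FANCG had 3208, 3258 and 3225 normalized counts in siDNp63 libraries, against 2664, 2772 and 2728 in siCTRL libraries. The groups were apart by more than the range within either, and the log2 fold change was 0.25 (SE 0.04, adjusted p = 0.00129). FANCA had 4000.1, 4085 and 3951 normalized counts in siDNp63 libraries, against 3417, 3745 and 3315 in siCTRL libraries, with a log2 fold change of 0.20 (SE 0.05, adjusted p = 0.0182). UBE2T, the ubiquitin-conjugating enzyme of the pathway, had 3424 to 3769.9 normalized counts in siDNp63 libraries and 3161 to 3265 in siCTRL libraries (log2 fold change 0.18, adjusted p = 0.0209). UBE2T was called in 9 of the 16 fits, FANCA in 11 and FANCG in 14. The calls of UBE2T, FANCA and FANCG were all lost on log2(TPM + 0.1) and with transcript length offsets. The call of FANCA was lost without siCTRL replicate 1 (adjusted p = 0.0811) or siCTRL replicate 3 (adjusted p = 0.0780), and that of UBE2T without siDNp63 replicate 2 (adjusted p = 0.0558) or siCTRL replicate 1, 2 or 3 (adjusted p = 0.0827, 0.0597 and 0.0595). The ubiquitin ligase FANCL (0.14), the translocase FANCM (0.08) and the X-linked FANCB (-0.03) were not called, with 95% intervals of the log2 fold change that together ran from -0.24 to 0.29, although FANCM was called higher without siDNp63 replicate 2 (adjusted p = 0.0454).

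Both genes of the FANCD2-FANCI pair, the substrate of the core complex, were higher. FANCD2 had 6479, 5881 and 5889 normalized counts in siDNp63 libraries, against 4709.8, 5106 and 4908 in siCTRL libraries. The siDNp63 replicate 1 was the highest of the 6, and the other 2 siDNp63 libraries were still above each siCTRL library (log2 fold change 0.31, SE 0.05, adjusted p = 0.00290). FANCI, from the gene on chromosome 15, had 15619, 14486 and 14510.2 normalized counts in siDNp63 libraries, against 12210.3, 12759 and 12243 in siCTRL libraries. The groups did not overlap, and FANCI was 19.9% higher in siDNp63 libraries (log2 fold change 0.26, SE 0.04, adjusted p = 0.00255). Both calls were lost on log2(TPM + 0.1), with adjusted p = 0.178 for FANCD2 and 0.314 for FANCI, and also with transcript length offsets, with adjusted p = 0.0624 for FANCD2 and 0.0970 for FANCI.

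Of 13 homologous recombination genes, 5 were higher, 0 were lower and 8 were not called, with a median log2 fold change of 0.13. The called share, 38.5%, is near the 33.6% of all genes. At an unadjusted p under 0.05 in the edgeR fit, 0 were lower as well, and DESeq2 called 0 of them lower, but with library size alone 1 was lower, RAD51C (log2 fold change -0.19, adjusted p = 0.0166). Higher calls were 2 on log2(TPM + 0.1), 2 with transcript length offsets and 3 without siCTRL replicate 1. BRCA1, which promotes recombination at breaks, had 5084, 4513 and 4746 normalized counts in siDNp63 libraries, against 3595, 3595 and 3486 in siCTRL libraries. The lowest siDNp63 library was above the highest siCTRL library, and BRCA1 was 34.3% higher (log2 fold change 0.43, SE 0.05, adjusted p = 0.000453). BLM, the helicase lost in Bloom syndrome, had 2168, 1901 and 2080.0 normalized counts in siDNp63 libraries, against 1552, 1573 and 1594 in siCTRL libraries. Its siCTRL libraries lay close together and its siDNp63 libraries were more spread, with a log2 fold change of 0.38 (SE 0.06, adjusted p = 0.00145). BRCA1 and BLM were called higher in all 16 fits, with log2 fold changes of 0.22 to 0.47 for BRCA1 and 0.29 to 0.43 for BLM.

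EXO1, an exonuclease that resects break ends and also serves mismatch repair, had 3437, 3268 and 3344 normalized counts in siDNp63 libraries, against 2705, 2639 and 2767 in siCTRL libraries. The groups were apart by more than their ranges (log2 fold change 0.31, SE 0.04, adjusted p = 0.000672), although on log2(TPM + 0.1) the value was 0.12 with an adjusted p of 0.378. EXO1 was not called with transcript length offsets either. RAD51AP1, a recombination accessory factor, had 3078, 2821 and 2979 normalized counts in siDNp63 libraries, against 2493, 2419 and 2682 in siCTRL libraries (log2 fold change 0.22, SE 0.05, adjusted p = 0.0137), and was called in 11 of the 16 fits. It was not called without siCTRL replicate 1 (adjusted p = 0.0567) or siCTRL replicate 2 (adjusted p = 0.0552), with library size alone (0.14, adjusted p = 0.0595), on log2(TPM + 0.1) (0.14, adjusted p = 0.179) or with transcript length offsets (0.20, adjusted p = 0.0581). BRCA2, a recombination mediator, had 4262, 3306 and 3909 normalized counts in siDNp63 libraries, against 2891, 2914 and 3162 in siCTRL libraries. The siDNp63 libraries of BRCA2 were widely spread, with replicate 2 close to the highest siCTRL library (log2 fold change 0.35, SE 0.09, adjusted p = 0.0170). Without siDNp63 replicate 1, BRCA2 had a log2 fold change of 0.27 (adjusted p = 0.0231), and it lost its call without siDNp63 replicate 3 (adjusted p = 0.0599), siCTRL replicate 1 (adjusted p = 0.0639) or siCTRL replicate 2 (adjusted p = 0.0612). On log2(TPM + 0.1) the value for BRCA2 was 0.16 (adjusted p = 0.307), and with transcript length offsets it was 0.22 (adjusted p = 0.111), neither of them called.

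The 8 recombination genes that were not called had log2 fold changes of -0.17 in XRCC3 to 0.23 in XRCC2. XRCC2 lay at the threshold (adjusted p = 0.0549), with groups that did not overlap, and was called higher in 5 of the 16 fits, among them the fit without siDNp63 replicate 2 (adjusted p = 0.00870). The partners of BRCA1 and BRCA2 gave values near 0: PALB2, which links both proteins, 0.07 with a 95% interval of -0.03 to 0.18, BARD1, the ubiquitin ligase partner of BRCA1, -0.06 with an interval of -0.19 to 0.07, and the helicase BRIP1 0.06 with an interval of -0.08 to 0.21. The translocases RAD54L and RAD54B gave 0.10 and 0.13, RAD54L being called without siCTRL replicate 2 (adjusted p = 0.0457), and RAD51C gave -0.11.

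**Figure D3:**
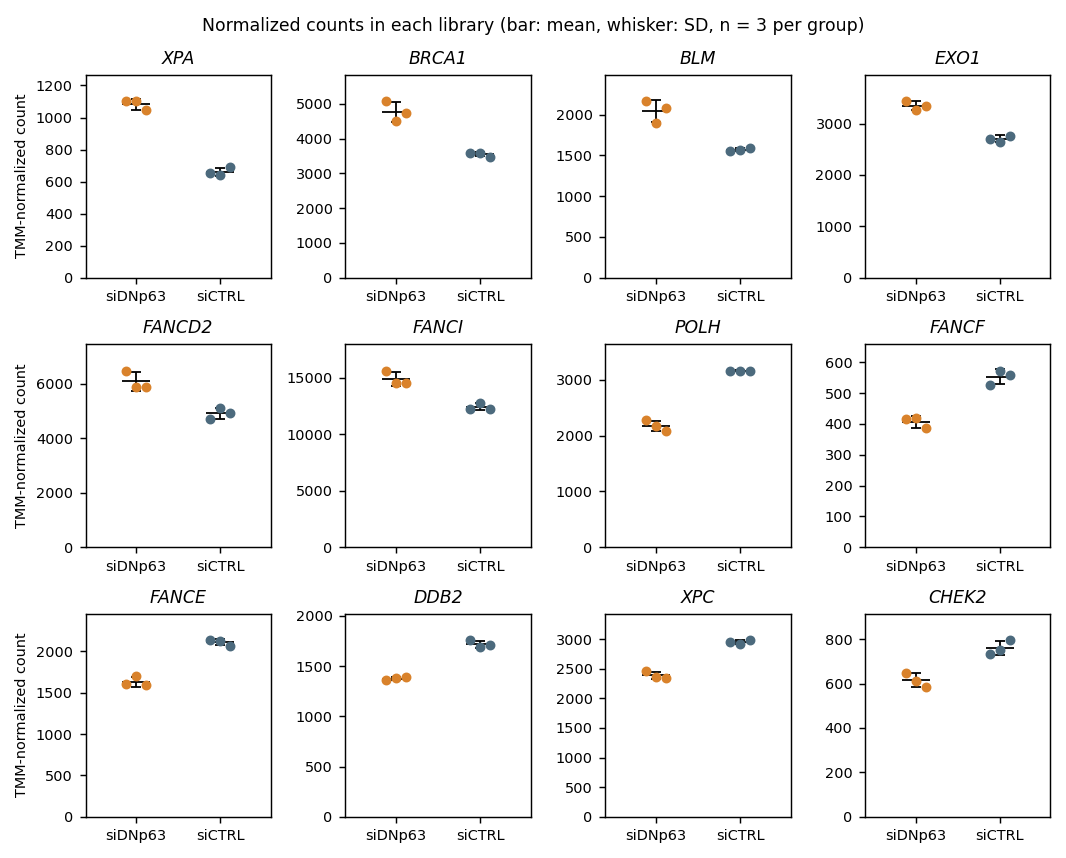
TMM-normalized counts (y axis, from 0) of 12 called genes in the 3 siDNp63 libraries and the 3 siCTRL libraries (x axis), where points are libraries, bars are means and whiskers are SDs (n = 3 per group). In XPA, BRCA1, BLM, EXO1, FANCD2 and FANCI each siDNp63 library is above each siCTRL library, and in POLH, FANCF, FANCE, DDB2, XPC and CHEK2 each is below.

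Nucleotide excision repair held the highest fold change of the 46 genes beside several lower ones: of 11 genes, 2 were higher, 3 were lower and 6 were not called, with a median log2 fold change of -0.04. The called share was 45.5%, against 33.6% of all genes. With library size alone 1 of the 11 was called higher and 5 lower. XPA, the scaffold that verifies the lesion and positions the nucleases, had 1103, 1103 and 1044 normalized counts in siDNp63 libraries, against 651, 641 and 689 in siCTRL libraries. The gap between the groups was several times the range within either, and XPA was 64.0% higher in siDNp63 libraries (log2 fold change 0.71, SE 0.06, adjusted p = 8.41e-05). In TPM it averaged 41.2 in siDNp63 libraries and 28.3 in siCTRL libraries, and its log2 fold change was 0.53 to 0.74 over all 16 fits. The gene lies on the minus strand at chr9:97674909-97697340 on GRCh38. ERCC3, the XPB helicase of the transcription factor TFIIH, had 4220.1, 4146 and 4038 normalized counts in siDNp63 libraries, against 3718, 3813 and 3630.2 in siCTRL libraries, a log2 fold change of 0.15 (SE 0.04, adjusted p = 0.0164) that was called in 11 fits. It was not called without siCTRL replicate 1 (adjusted p = 0.0531) or siCTRL replicate 3 (adjusted p = 0.0602). The call of ERCC3 was also lost with library size alone, on log2(TPM + 0.1) and with transcript length offsets.

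The 3 lower genes included both damage sensors of genome-wide excision repair. XPC had 2461, 2369 and 2348 normalized counts in siDNp63 libraries, against 2949, 2921 and 2985 in siCTRL libraries. It fell by 19.0%, with no overlap (log2 fold change -0.30, SE 0.04, adjusted p = 0.000633). DDB2, which finds ultraviolet lesions, had 1359, 1384 and 1389 normalized counts in siDNp63 libraries, against 1759.6, 1690.2 and 1707 in siCTRL libraries. Its siDNp63 libraries were within a narrow range under each siCTRL library (log2 fold change -0.32, SE 0.04, adjusted p = 0.000905), and it was called in 15 fits. ERCC5, the XPG nuclease that cuts on the 3′ side of the lesion, had 1415, 1319 and 1361 normalized counts in siDNp63 libraries, against 1690.2, 1629.9 and 1687 in siCTRL libraries (log2 fold change -0.29, SE 0.05, adjusted p = 0.00236). DDB1, the partner of DDB2, was not called, at -0.04 with a 95% interval of -0.12 to 0.04.

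The transcription-coupled repair factors ERCC6 and ERCC8, lost in Cockayne syndrome, gave log2 fold changes of 0.01 each, with intervals of -0.12 to 0.14 for ERCC6 and -0.11 to 0.13 for ERCC8. The nuclease pair ERCC1 (-0.14) and ERCC4 (0.16) was not called either. ERCC2, the XPD helicase, had 1146, 1402 and 1348 normalized counts in siDNp63 libraries, against 1498, 1571 and 1450.3 in siCTRL libraries, with an adjusted p of 0.0748 and siDNp63 replicate 1 as the lowest library. Without siDNp63 replicate 2, ERCC2 was called lower (adjusted p = 0.0454) and ERCC4 higher (adjusted p = 0.0449). Of the 3 called genes of the preincision complex, XPA and ERCC3 were higher and ERCC5 was lower.

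Translesion synthesis, in which specialised polymerases copy past lesions, held the lowest fold change of the called genes. POLH, polymerase eta, which bypasses ultraviolet dimers and is lost in the variant form of xeroderma pigmentosum, had 2274, 2167 and 2092 normalized counts in siDNp63 libraries, against 3153, 3168 and 3169 in siCTRL libraries. The siCTRL libraries were nearly equal and each siDNp63 library was far below them, so that POLH fell by 31.2% (log2 fold change -0.54, SE 0.04, adjusted p = 6.09e-05, the smallest of the 46). The gene lies on the plus strand at chr6:43576185-43620523 on GRCh38. In TPM it averaged 28.9 in siDNp63 libraries and 42.5 in siCTRL libraries, and its log2 fold change was -0.63 to -0.50 over all 16 fits. REV3L, the catalytic subunit of polymerase zeta, had 8558, 6791 and 7480.1 normalized counts in siDNp63 libraries, against 5756, 5699.5 and 6096 in siCTRL libraries. The siDNp63 libraries of REV3L were the more spread, and all were above the siCTRL libraries (log2 fold change 0.38, SE 0.08, adjusted p = 0.00827). Without siDNp63 replicate 1 the value for REV3L was 0.29 (adjusted p = 0.00407), and on log2(TPM + 0.1) it was 0.24 and not called (adjusted p = 0.179). REV3L was not called with transcript length offsets either. REV1, the scaffold that recruits the other polymerases, was not called, at 0.06 with an interval of -0.08 to 0.19.

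None of the 4 MutS and MutL family genes was called: MSH3, MSH6 and PMS2 of mismatch repair, and MSH5 of meiotic recombination. Of these 4 genes, 0 passed an unadjusted p under 0.05 in the edgeR fit and 0 were called by DESeq2, and all 4 overlapped between groups. Over all genes, 33.6% were called and 49.4% did not overlap, so counts over 4 genes show little. MSH3, which recognises larger loops, had the smallest p of the 4, with 2022, 1763 and 1791 normalized counts in siDNp63 libraries and 1793, 1682 and 1669.9 in siCTRL libraries (log2 fold change 0.11, SE 0.06, adjusted p = 0.212). MSH6 gave 0.00 with a 95% interval of -0.09 to 0.09, and PMS2, an endonuclease of mismatch repair, gave 0.02 with an interval of -0.10 to 0.13. For MSH5 the counts were low, 65.2, 61.6 and 39.1 in siDNp63 libraries and 80.7, 63.4 and 57.4 in siCTRL libraries, and the interval of its log2 fold change, -0.86 to 0.28, does not show whether it differed. MSH5 lies in the major histocompatibility region at chr6:31739677-31762676 on GRCh38, where alternate haplotypes carry further copies, so its count may leave out reads given to a copy under another ID. PMS2, CHEK2, BRCA1 and FANCD2 have pseudogene copies, and the division of reads between copies is uncertain for them.

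Among the 4 checkpoint kinases, CHEK1 was higher, ATM and CHEK2 were lower and ATR was not called. The called share was 75%, against 33.6% of all genes. None of the 4 overlapped between groups, where 49.4% of all genes did not overlap. CHEK1, the effector kinase of ATR, had 2891, 2818 and 2839.7 normalized counts in siDNp63 libraries, against 2402, 2467 and 2646 in siCTRL libraries (log2 fold change 0.19, SE 0.05, adjusted p = 0.0162). It was called in 12 of the 16 fits. The call was lost with library size alone and on log2(TPM + 0.1), and also without siCTRL replicate 1 (adjusted p = 0.0744) or siCTRL replicate 2 (adjusted p = 0.0739). CHEK2, the effector kinase of ATM, had 649.8, 613 and 584 normalized counts in siDNp63 libraries, against 735, 753 and 796 in siCTRL libraries. Each siDNp63 library was below each siCTRL library (log2 fold change -0.31, SE 0.07, adjusted p = 0.0119), and the call held in 15 fits. ATM, the kinase that responds to double-strand breaks, had 3795, 2991 and 3457 normalized counts in siDNp63 libraries, against 4234, 4058 and 4052 in siCTRL libraries. Its highest siDNp63 library was replicate 1, and the call (log2 fold change -0.27, SE 0.08, adjusted p = 0.0323) was lost without siDNp63 replicate 3 (adjusted p = 0.0817), siCTRL replicate 1 (adjusted p = 0.0825), siCTRL replicate 2 (adjusted p = 0.0616) or siCTRL replicate 3 (adjusted p = 0.0645). ATM was called in 10 of the 16 fits, and its call was also lost on log2(TPM + 0.1) and with transcript length offsets. With transcript length offsets 0 of the 4 kinases were called lower. ATR, the kinase that responds to stalled forks, gave -0.20 with an adjusted p of 0.0514 in the main edgeR fit. It was called lower in 6 of the 16 fits, among them DESeq2, limma-voom and library size alone. Without siDNp63 replicate 1 it was also called, at -0.27 with an adjusted p of 0.00230.

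**Figure D4:**
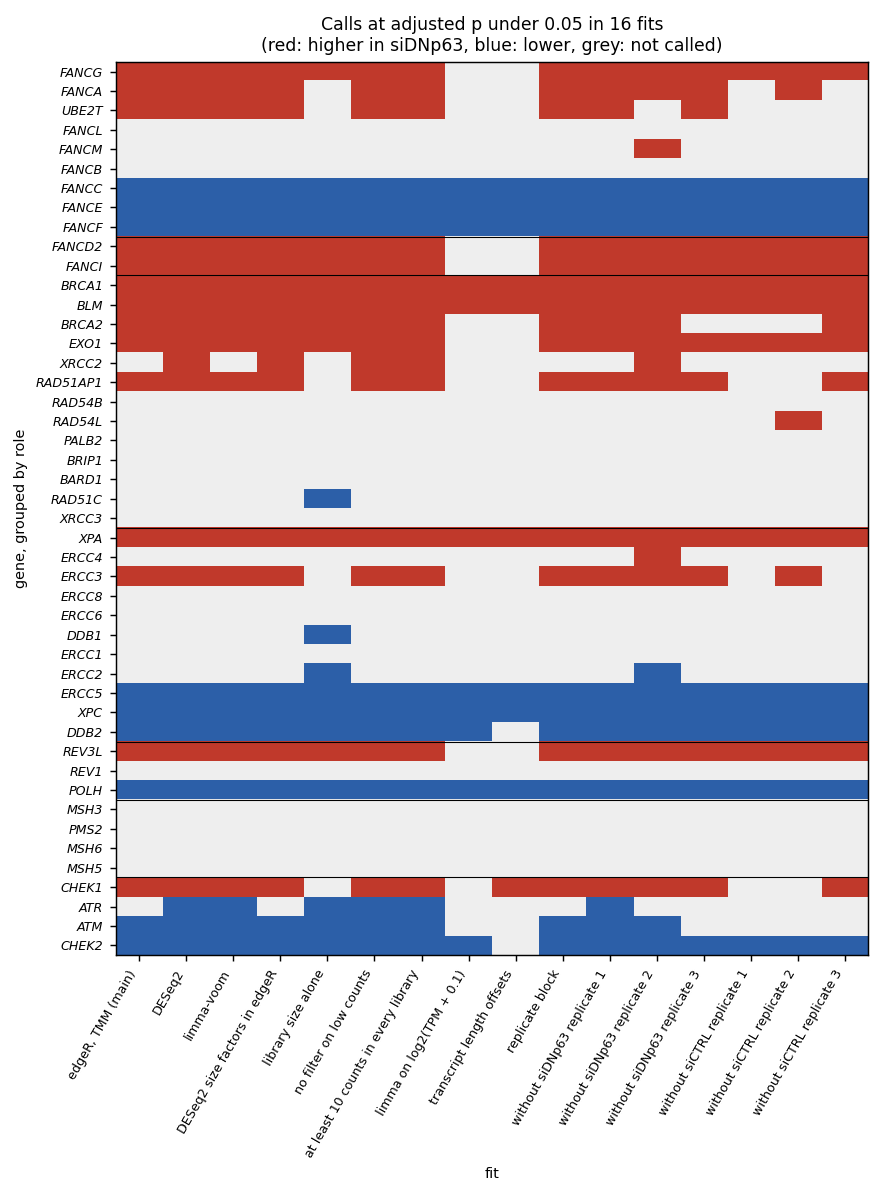
Calls at an adjusted p under 0.05 for each of the 46 genes (y axis, grouped by role) in the main edgeR fit and 15 alternative fits (x axis), where red marks higher in siDNp63 libraries, blue lower and grey not called. BRCA1, BLM and XPA are red and FANCC, FANCE, FANCF, XPC, ERCC5 and POLH are blue across all 16 columns, and the columns for log2(TPM + 0.1) and transcript length offsets hold 3 and 4 red cells.

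The departure of siDNp63 replicate 1 was also seen in these genes. Its log2 normalized count differed from the mean of siDNp63 replicates 2 and 3 by -0.28 in XRCC3 to 0.41 in MSH5. ERCC2 (-0.26) and ERCC1 (-0.22) were also low in it, and ERCC4 (0.30), REV3L (0.26), BRCA2 (0.25) and ATM (0.24) were high. Across the 46 genes this difference had a Pearson r of -0.66 and a Spearman rho of -0.61 with the GC content of the canonical transcript, and 0.39 and 0.57 with its length. Across 16026 genes tested, r and rho were -0.28 and -0.49 with GC content and 0.09 and 0.19 with length. These are descriptions across genes that share the same libraries, and genes are not independent replicates. The log2 fold change itself had an r of -0.37 and a rho of -0.38 with GC content across the 46 genes, against -0.07 and -0.11 across all genes. The part of GC content in the calls was not tested.

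**Figure D5:**
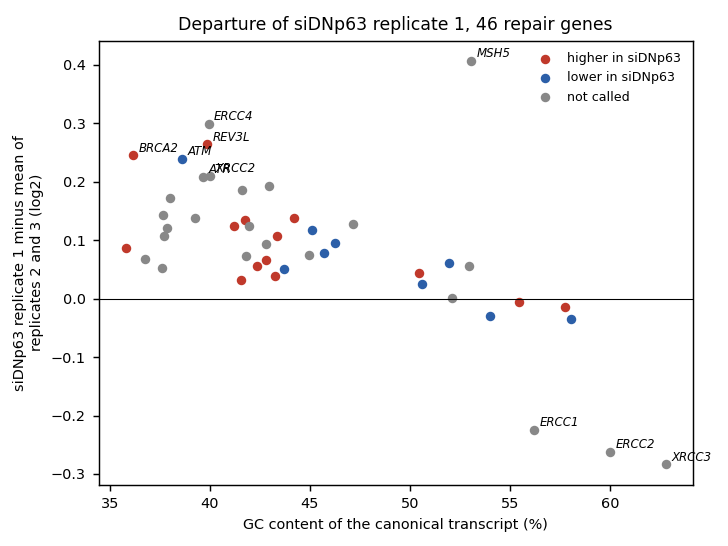
Log2 normalized count of siDNp63 replicate 1 minus the mean of siDNp63 replicates 2 and 3 (y axis) against the GC content of the canonical transcript (x axis, percent), where each point is 1 of the 46 genes, coloured by its call. Points run from the upper left to the lower right, with XRCC3, at -0.28, and ERCC2, at -0.26, at the GC-rich end and MSH5, at 0.41, apart from the rest.

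The estimated transcript length, the ratio of estimated count to TPM, can shift between groups when the mix of isoforms shifts. It shifted by over 0.1 on the log2 scale in 10 of the 45 genes for which it could be computed, with a median absolute shift of 0.06, against 0.03 over 13038 genes. It was longer in siDNp63 libraries in 6 of the 10, ERCC4 (0.35), BRCA1 (0.13), BRIP1 (0.12), BRCA2 (0.12), EXO1 (0.11) and XPA (0.10), and shorter in 4, ERCC6 (-0.16), ERCC1 (-0.14), XRCC3 (-0.13) and ATM (-0.11). In TPM, BRCA1 averaged 41.4 in siDNp63 libraries and 35.6 in siCTRL libraries, and EXO1 averaged 51.3 in siDNp63 libraries and 47.3 in siCTRL libraries, smaller differences than in counts for both genes.

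The remaining genes of these pathways were read beside the 46. Of 105 other repair genes, 16 were higher and 13 lower in siDNp63 libraries, 27.6% against the 33.6% of all genes, with a median log2 fold change of -0.01. With library size alone 9 were higher and 29 lower, on log2(TPM + 0.1) 6 were higher and 14 lower, and with transcript length offsets 9 were higher and 8 lower. Lower calls were 19 without siDNp63 replicate 1 and 5 to 7 without each of the other 5 libraries. Among 16 further crosslink repair genes, 2 were higher and 2 lower, with the nuclease subunit EME1 at 0.31 and the nuclease FAN1 at -0.24. Among 25 further recombination genes, 1 was higher, BRCC3 of the BRCA1-A complex at 0.27, and 5 were lower, among them the single-strand binding subunit RPA2 at -0.21 and the resection factor RBBP8 at -0.18. Among 16 further excision repair genes, 2 were higher and 3 lower. The lower TFIIH subunits GTF2H5 (-0.45) and GTF2H3 (-0.43) stood beside the higher MNAT1 (0.20) and ERCC3. Base excision and single-strand break repair gave 3 higher and 1 lower of 20 genes, with the uracil glycosylase UNG at 0.25 and the glycosylase NEIL1 at -0.42. End joining gave 2 higher and 1 lower of 14, with the ligase pair LIG4 at 0.45 and XRCC4 at 0.34. Of 14 further checkpoint genes 6 were higher and 1 lower, with a median of 0.09, among them the mitotic brake WEE1 at 0.46 and CLSPN, which brings CHEK1 to ATR, at 0.37.

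Of 20 proliferation genes, 14 were higher, 0 were lower and 6 were not called, at a median log2 fold change of 0.24, against the 18.4% of all genes called higher. Higher calls were 9 on log2(TPM + 0.1). At an unadjusted p under 0.05, 0 were lower in the edgeR fit, and DESeq2 called 15 higher and 0 lower. TOP2A, the topoisomerase of mitotic chromosomes, averaged 44422 ± 2820.2 normalized counts in siDNp63 libraries and 28963 ± 1512 in siCTRL libraries (SD, n = 3 each), and its log2 fold change was 0.62 (adjusted p = 0.000141). FOXM1, a transcription factor of G2 and mitosis, gave 0.50, and the cyclin CCNB1 gave 0.39. The part of cell cycle phase in the values of the repair genes was not tested, and in bulk libraries a change in the share of cells in a phase and a change in RNA per cell cannot be told apart.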

How the data were processed

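RNA of SCC90 cells was sequenced by the authors as stranded poly(A) libraries, 6 in all, and quantified with kallisto 0.46.2 after bcl2fastq 2.17.1.14, as the submitters' processing notes name them, with hg38 as the build. Which annotation release they used was not found in any source read. The authors deposited 1 gene table with an estimated count and a TPM per library from kallisto, and its 12 columns were used. Estimated counts were rounded, genes were filtered with filterByExpr (minimum count 10), scaled by TMM and tested with edgeR 4.0.16 (quasi-likelihood, R 4.3.3, all 6 libraries, no covariate), with Benjamini-Hochberg adjustment over 17257 genes. DESeq2 1.42.0 and limma 3.58.1 were alternatives. Normalized counts are TMM-scaled to the mean library size, and fold changes are siDNp63 over siCTRL. The deposited TPM values were used for levels and, on log2(TPM + 0.1), for an alternative. The script was tested on simulated data. Gene IDs were paired with symbols through a name table that matched 35538 of 40488 IDs, and gene coordinates are those of GENCODE on GRCh38.

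The genes and all lists were chosen with earlier results of these data known. Values in every library are given for called genes among the 5 smallest p-values of their role, for the mismatch repair gene with the smallest p and for TP63, and up to 3 called genes per further list, those with the smallest p, were eligible to be named. ERCC2 and MSH5, outside this rule, were added after their values were seen, for the place of 1 library and for low counts.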

Additional observations from a re-analysis of the deposited data

How the results depend on the processing

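None of the 23 called genes changed sign under an alternative, but 13 of the 23 uncalled genes did, and the balance of directions turned: the 46 genes had 9 higher and 13 lower calls with library size alone, 3 and 8 on log2(TPM + 0.1) and 4 and 6 with transcript length offsets, and their median was -0.03 with library size alone. Higher calls ranged from 8 (without siCTRL replicate 1) to 16 when 1 library was left out. Library size alone also gave 2330 higher and 4117 lower calls over all genes. On log2(TPM + 0.1) all genes had 1678 higher and 2285 lower calls, and with transcript length offsets 2344 and 1790. Among the 105 other repair genes, higher calls were 9 with library size alone, 6 on log2(TPM + 0.1) and 9 with transcript length offsets, and lower calls were 29 with library size alone, 8 with transcript length offsets, 19 without siDNp63 replicate 1 and 5 to 7 without each of the other 5 libraries, the lowest without siCTRL replicate 3. Higher proliferation calls were 9 on log2(TPM + 0.1). The cause of these shifts was not tested, but the median of all genes moved to -0.11 with library size alone and to -0.08 on log2(TPM + 0.1). Counts of the 46 genes with DESeq2, limma-voom, DESeq2 size factors, either filter and an unadjusted p under 0.005 were 13 to 15 higher and 8 to 10 lower.

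Libraries with the same replicate number did not deviate together (correlations of -0.01, 0.02 and 0.03), and those with different numbers gave -0.05 to 0.04. These values cannot decide whether same-numbered libraries were prepared together, because such libraries need not deviate together. The labels do not state it. With the replicate number as a block the 46 genes had 14 higher and 9 lower calls, the other repair genes 8 lower, and all genes 2777 higher and 2175 lower. The sum of MSH5 with copies on alternate haplotypes was not run, because the name table paired 1 row with MSH5. With 3 libraries per group, intervals of the 22 uncalled genes other than MSH5 ran from -0.39 to 0.41, which limits what their missing calls show.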
